A study of Bos taurus with 8 samples.

Results

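The 10 genes described here are the mitochondrially encoded subunits of the respiratory chain that were measured in cattle embryos: ND1, ND2, ND3, ND4, ND4L and ND5 of complex I, CYTB of complex III, COX1 and COX3 of complex IV, and ATP6 of the ATP synthase (complex V). They are the rows located on chromosome MT whose description names one of these proteins, so they were chosen by position and description and not by their values. They are 10 of the 13 rows on chromosome MT and 10 of the 21258 features in the files. RNA was sequenced from Holstein embryos at the eight-cell stage, with a pool of 8 embryos behind each library. The 3 groups were embryos made by in vitro fertilisation (IVF, 3 libraries), clones in which a body-cell nucleus replaced that of the egg, known as somatic cell nuclear transfer (SCNT, 3 libraries), and such clones with overexpression of KDM4E, a demethylase of histone H3 lysine 9 (KDM4E-SCNT, 2 libraries). The study's design names SCNT as the control of the other groups. The labels do not give the donor cell type, the way KDM4E was overexpressed, the hour of collection, or whether pools that share a group are from different batches. A p-value here therefore reflects the spread between these 8 samples alone, and that spread may be technical.

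Mitochondria carry a small circular genome of their own, which codes for core, membrane-embedded subunits of complexes I, III, IV and V, while all other subunits, and all of complex II, are coded in the nucleus. Complex I takes electrons from NADH, complex III passes them from ubiquinol to cytochrome c, complex IV passes them to oxygen, and the ATP synthase uses the resulting proton gradient to make ATP. The genes have no introns and are transcribed as long precursor RNAs that are cut apart, mostly at transfer RNAs, so the level of a mature messenger depends on its stability as well as on transcription. The early embryo lives on mitochondria stored in the egg, and a cloned embryo holds the mitochondria of the recipient egg and can also hold some of the donor cell.

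Values are FPKM, fragments per length of transcript and per library size, so levels of different genes are compared per length. Values of several libraries are given in the order of the replicate numbers. FPKM is a share of the RNA in a pool, so fewer mitochondria or cells and less RNA per cell cannot be told apart. Sequencing depth is unknown from these values. Between 10975 and 13050 features per library had at least 1 FPKM, and the 10 most abundant took 24.7% to 25.7% of all FPKM in IVF, 15.8% to 20.9% in SCNT and 22.8% to 23.6% in KDM4E-SCNT. Over genes, which are no independent replicates, Spearman's rho between libraries of a group was 0.885 or more, and it was 0.593 to 0.679 for IVF with SCNT. It was 0.793 to 0.893 for IVF with KDM4E-SCNT and 0.736 to 0.839 for SCNT with KDM4E-SCNT. No feature is named KDM4E. LOC524768 (chromosome 15, 15664825 to 15668339), described as similar to KDM4C and of uncertain identity as KDM4E, stood at 108.9, 88.3 and 109.1 FPKM in IVF, 25.4, 29.95 and 33.9 FPKM in SCNT, and 101.9 and 206.4 FPKM in KDM4E-SCNT.

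The 10 oocyte and embryo markers examined are transcripts of the egg, which earlier stages also hold, so they do not check the eight-cell label. All 10 were detected in every group. Their summed level was 22914 to 29360 FPKM in IVF, 3659 to 8253 FPKM in SCNT and 17512 to 20853 FPKM in KDM4E-SCNT, most of it from BTG4. Fibroblast markers (15 of 16 found) summed to 26.6 to 48.5 FPKM in IVF, 120.0 to 186.3 FPKM in SCNT, and 88.5 and 378.7 FPKM in KDM4E-SCNT replicates 1 and 2, with TAGLN at 0 in IVF, THY1 at 0 in SCNT and PDGFRB at 0 in KDM4E-SCNT. Cumulus and granulosa markers (10 of 11 found) summed to 103.8 to 163.5 FPKM in IVF, 16.9 to 25.5 FPKM in SCNT and 46.1 to 100.3 FPKM in KDM4E-SCNT; AMH was at 0 in IVF, PTX3, FSHR and CYP11A1 in SCNT, and FSHR in KDM4E-SCNT. Sperm markers (8 of 10 found) summed to 66.95 to 89.0, 25.3 to 42.4 and 47.5 to 52.9 FPKM in the same order of groups, and blood markers (7 of 7 found) to 12.8 to 19.2, 37.2 to 76.7 and 29.6 to 44.3 FPKM. At 0 were TNP1 and TNP2 in IVF, ODF1 and AKAP4 in SCNT, and TNP2 and HBB in KDM4E-SCNT. By mean FPKM the 3 most abundant oocyte and embryo markers were BTG4, BMP15 and ZP4, and the fibroblast ones LGALS1, SPARC and LUM. Those for cumulus and granulosa were HAS2, STAR and TNFAIP6. Those for sperm were LDHC, CRISP2 and TEKT1, and for blood HBA, CD3E and PTPRC. HAS2 averaged 55.9 FPKM in IVF and 6.81 FPKM in SCNT, and STAR 59.2 and 7.46, while TNFAIP6 was at 1.98 and 5.24. These sums differ between the groups compared below, and their part in the results on the mitochondrial genes was not tested.

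The mitochondrial genes were among the most abundant transcripts of these embryos. ATP6 ranked 3, 5 and 3 among all 21258 features in the IVF libraries, 2 in each SCNT library and 2 in both KDM4E-SCNT libraries. COX3 ranked 5, 7 and 6 in IVF, 10, 19 and 12 in SCNT, and 4 and 5 in KDM4E-SCNT. The least abundant member by group mean, ND5, still ranked 60 to 111 in IVF, 111 to 147 in SCNT, and 43 and 33 in KDM4E-SCNT. Together the 10 genes took 5.86%, 6.35% and 6.94% of all FPKM in IVF, 7.41%, 9.83% and 8.21% in SCNT, and 10.6% and 11.1% in KDM4E-SCNT. The shares of the 3 groups did not overlap, with IVF lowest and KDM4E-SCNT highest. No test was made on this summed share.

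**Figure D1:**
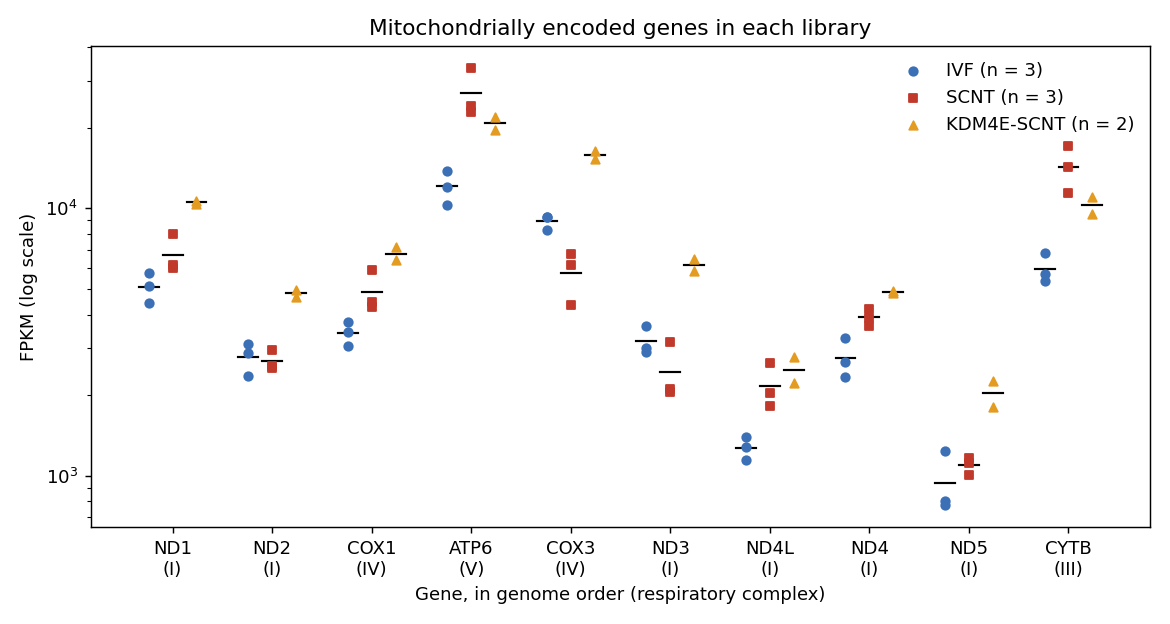
FPKM (log axis) of each of the 10 mitochondrially encoded genes in every library, in genome order, with the respiratory complex in brackets; circles are IVF (n = 3), squares SCNT (n = 3), triangles KDM4E-SCNT (n = 2), and bars are group means. ATP6 and CYTB were highest in the SCNT libraries, COX3 was lowest there, and most complex I genes were highest in the KDM4E-SCNT libraries.

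Complex I is the largest complex of the chain, and its members ND1, ND2, ND4 and ND5 lie in the membrane arm, where ND2, ND4 and ND5 form proton-pumping modules. ND1 (ENSBTAG00000043558.1; UMD3.1 chromosome MT, 3101 to 4056), next to the ubiquinone site, stood at 4404, 5135 and 5749 FPKM in IVF, 5952, 8029 and 6122 FPKM in SCNT and 10689.7 and 10376 FPKM in KDM4E-SCNT. IVF libraries were the lowest and KDM4E-SCNT libraries the highest, with no overlap between any pair of groups. ND2 (ENSBTAG00000043571.1; 4266 to 5307) was at 2349.9, 2865 and 3108 FPKM in IVF, 2524, 2956 and 2580.35 FPKM in SCNT and 4675 and 4925 FPKM in KDM4E-SCNT. The IVF and SCNT libraries overlapped, and both KDM4E-SCNT libraries lay above all 6 others. ND4 (ENSBTAG00000043577.1; 10529 to 11906) was at 2654, 2327 and 3282 FPKM in IVF, 3617, 4198 and 3896 FPKM in SCNT and 4821 and 4893 FPKM in KDM4E-SCNT, which separated the 3 groups in the same order as for ND1. ND5 (ENSBTAG00000043563.1; 12109 to 13929), the longest of the 10 genes at 1821 bp, was at 774, 805 and 1230.3 FPKM in IVF, 1007, 1161 and 1117 FPKM in SCNT and 1811 and 2267 FPKM in KDM4E-SCNT. For ND5, IVF replicate 3 lay above every SCNT library while the other IVF libraries lay below them, and both KDM4E-SCNT libraries were higher than the rest.

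ND3 and ND4L are the small complex I members. ND3 (ENSBTAG00000043568.1; 9823 to 10168), which lies at the joint of the complex's arms, stood at 3005, 3634 and 2905 FPKM in IVF, 2109.5, 3147 and 2063 FPKM in SCNT and 5818 and 6468 FPKM in KDM4E-SCNT. SCNT replicate 2 lay within the IVF range, the other SCNT libraries lay below it, and KDM4E-SCNT lay far above both. ND4L (ENSBTAG00000043559.1; 10239 to 10535), the shortest of the 10 genes at 297 bp, was at 1274, 1144 and 1392 FPKM in IVF, 1828, 2645 and 2028 FPKM in SCNT and 2772 and 2210.2 FPKM in KDM4E-SCNT. Here IVF lay below both other groups, and SCNT and KDM4E-SCNT overlapped. ND4L and ND4 overlap by 7 bp and are translated from a shared messenger, and the ratio of ND4 to ND4L stayed between 1.59 and 2.36 over the 8 libraries. The ratio of ND3 to ND4L, a pair chosen after its values were seen, was 2.36, 3.18 and 2.09 in IVF, 1.15, 1.19 and 1.02 in SCNT, and 2.10 and 2.93 in KDM4E-SCNT, so that SCNT lay below both other groups.

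CYTB (ENSBTAG00000043550.1; 14514 to 15653), cytochrome b, is the only complex III subunit coded in the mitochondrion and carries the hemes that move electrons across the membrane. It stood at 5665, 5328 and 6786 FPKM in IVF, 11376, 17036 and 14327 FPKM in SCNT and 11005 and 9540.45 FPKM in KDM4E-SCNT. All 3 SCNT libraries were above both KDM4E-SCNT libraries, and these were above all 3 IVF libraries.

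COX1 and COX3 belong to complex IV. COX1 (ENSBTAG00000043561.1; 5687 to 7231), which holds the site where oxygen is reduced, was at 3062, 3739.8 and 3457 FPKM in IVF, 4464, 5853 and 4275 FPKM in SCNT and 6399 and 7140.3 FPKM in KDM4E-SCNT, with the groups in that order and not overlapping. COX3 (ENSBTAG00000043560.1; 8970 to 9750), the third core subunit, was at 8282, 9299 and 9244 FPKM in IVF, 6764, 4333 and 6115 FPKM in SCNT and 15320.0 and 16380.4 FPKM in KDM4E-SCNT. COX3 thus had its lowest values in SCNT, with SCNT replicate 2 the lowest of all 8 libraries, and its highest in KDM4E-SCNT. A locus on chromosome 8 (55005852 to 55008751) that the files describe as COX1 was listed at 0 to 2.74 FPKM, while other nuclear copies of mitochondrial genes were not analysed here.

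ATP6 (ENSBTAG00000043584.1; 8290 to 8970), the ATP synthase subunit that forms the proton channel with the c-ring, was the most abundant member in every library. It stood at 12050.2, 10306 and 13842 FPKM in IVF, 22924, 33536 and 24182 FPKM in SCNT and 22035 and 19651 FPKM in KDM4E-SCNT. SCNT libraries were the highest, with replicate 2 well above the others, and IVF libraries the lowest, again without overlap. ATP6 and COX3 are neighbours that overlap by 1 bp.

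The 3 remaining rows on chromosome MT lie outside the rule. ATP8, whose reading frame overlaps that of ATP6 by 40 bp on a shared messenger, is listed at 0 in 7 libraries and at 4679 FPKM in SCNT replicate 2. That library also had the highest ATP6 value, and how reads of the shared stretch were divided between the genes was not tested. COX2 is listed at 0 in IVF replicate 3 and SCNT replicates 1 and 2, and at 726 and 857 FPKM in IVF replicates 1 and 2, 519 FPKM in SCNT replicate 3, and 1790.3 and 366 FPKM in KDM4E-SCNT. Since every cell with a respiratory chain uses COX2, these zeros can be failed estimates, and no group level is given for it. ND6, coded on the other strand and overlapping ND5 by 17 bp, was at 899, 802 and 1215 FPKM in IVF, 1075, 1555 and 1141 FPKM in SCNT, and 1681 and 2213 FPKM in KDM4E-SCNT. The sources used here do not say that the libraries kept strand, so reads from the overlap cannot be told apart.

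The order of the members differed between the groups. In IVF the order by mean FPKM was ATP6, COX3, CYTB, ND1, COX1, ND3, ND2, ND4, ND4L and ND5, and the ranges of CYTB and ND1, of COX1, ND3, ND2 and ND4 as neighbours, and of ND4L and ND5 overlapped. In SCNT it was ATP6, CYTB, ND1, COX3, COX1, ND4, ND2, ND3, ND4L and ND5, with overlapping ranges from ND1 to COX1 and from ND2 to ND4L. In KDM4E-SCNT it was ATP6, COX3, ND1, CYTB, COX1, ND3, ND4, ND2, ND4L and ND5, with overlap between ND1 and CYTB, COX1 and ND3, ND4 and ND2, and ND4L and ND5. COX3 was the second member in both IVF and KDM4E-SCNT and the fourth in SCNT. The spread between replicates, as the SD of log2(FPKM + 1), ran from 0.09 (COX3) to 0.37 (ND5) in IVF, from 0.11 (ND5) to 0.34 (ND3) in SCNT and from 0.02 (ND4) to 0.23 (ND4L) in KDM4E-SCNT.

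The comparison of IVF with SCNT shows where clones depart from fertilised embryos. The members did not move together: ATP6, CYTB and ND4L were lower in IVF than in SCNT, COX3 was higher in IVF, and 6 members did not pass the test. CYTB was 2.38-fold lower in IVF (5926 ± 763 against 14247 ± 2831 FPKM, SD, n = 3 each), with a log2 difference of -1.25 ± 0.22 (SE) and a limma adjusted p of 0.000363. ATP6 was 2.21-fold lower in IVF (12066 ± 1768 against 26881 ± 5798 FPKM), a difference of -1.14 ± 0.22 (adjusted p = 0.000637). Of the smaller changes, ND4L differed by -0.76 ± 0.23 (1270 ± 124 against 2167 ± 426 FPKM, adjusted p = 0.0134). COX3 was 1.58-fold higher in IVF (8942 ± 572 against 5737 ± 1259 FPKM), by 0.66 ± 0.22 (adjusted p = 0.0194). Log2 differences are in log2(FPKM + 1) throughout, and the threshold for a call was an adjusted p of 0.05.

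Among the members not called in IVF against SCNT, COX1 differed by -0.50 ± 0.21 (adjusted p = 0.0608), ND4 by -0.51 ± 0.21 (0.0532) and ND1 by -0.39 ± 0.21 (0.129), each with groups that did not overlap. The values were -0.26 ± 0.25 for ND5 (0.386), 0.04 ± 0.21 for ND2 (0.878) and 0.40 ± 0.23 for ND3 (0.15), with overlapping groups. In all, 1 of 10 members was called higher in IVF, where 34.9% of all 14839 tested features were, and 3 of 10 were called lower, against 23.6%. The groups did not overlap for 7 of 10 members and for 64.4% of all features. The median difference of the members was -0.44 and that of all features 0.39, and 58.5% of all features were called in either direction. The calls of CYTB and ATP6 were kept under all 20 other settings tried (adjusted p from 6.03e-05 to 0.00389 and from 8.52e-05 to 0.00627). That of COX3 was kept under 16 (adjusted p from 0.00339 to 0.432) and that of ND4L under 17 (0.00115 to 0.242). COX3 lost its call without IVF replicate 3 (adjusted p = 0.0667) or SCNT replicate 2 (0.0777), and ND4L without SCNT replicate 2 (0.056). ND4L also lost its call with quantile normalization (-0.34, adjusted p = 0.242) and with centring on the 10 members (-0.39, 0.181). Without SCNT replicate 2, ND3 was called instead (0.60, adjusted p = 0.0459), and without IVF replicate 3, ND4 was called (0.0483).

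Scaling moved these counts. With median-ratio size factors 0 members were higher and 7 lower in IVF. Among all called features the share called higher went from 59.7% to 48.9%, and the median of all features went from 0.39 to 0.10. COX3 stood at 0.22 (adjusted p = 0.432) and CYTB at -1.70 under that scaling, and ND2 and ND3 turned to -0.40 and -0.04. With all libraries set to the same total FPKM, 2 members were higher (COX3 at 0.86 and ND3 at 0.60) and 3 lower, and ND2 was at 0.24.

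**Figure D2:**
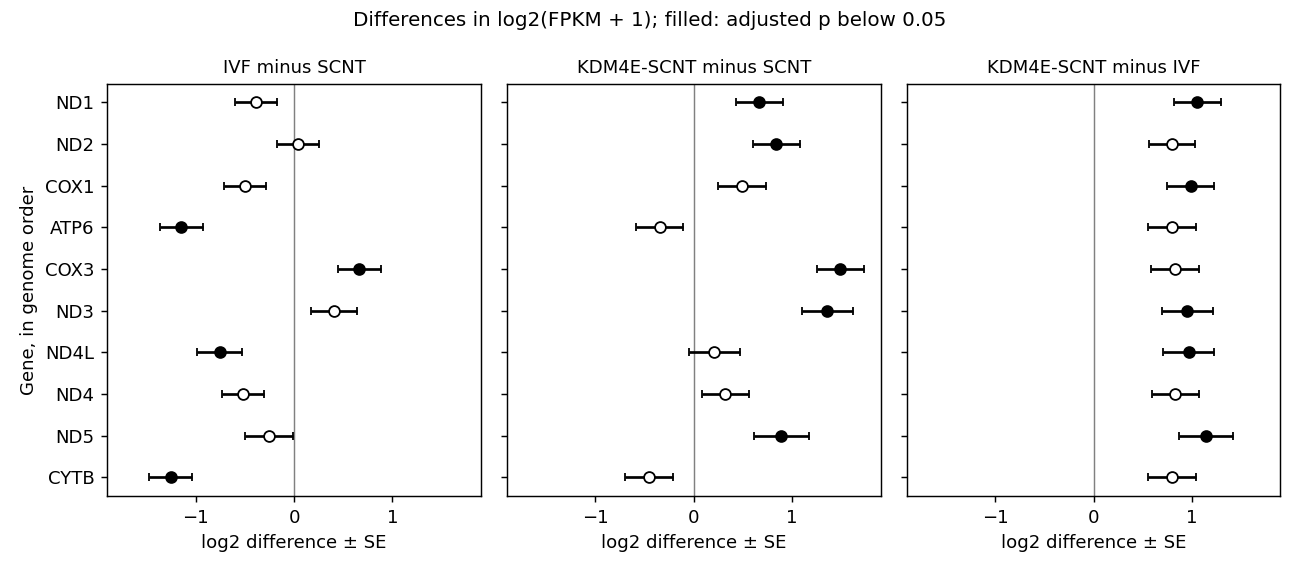
Log2 differences in FPKM + 1 (points) with standard errors (bars) for the 10 members in the 3 comparisons; filled points had a limma adjusted p below 0.05. IVF minus SCNT runs from -1.25 (CYTB) to 0.66 (COX3), KDM4E-SCNT minus SCNT from -0.46 (CYTB) to 1.49 (COX3), and KDM4E-SCNT minus IVF only from 0.80 to 1.15.

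The second comparison set cloned embryos with KDM4E overexpression against clones without it. COX3 and ND3 were far higher in KDM4E-SCNT than in SCNT, ND2, ND5 and ND1 were higher by less, and no member was called lower. COX3 was 2.81-fold higher (15320.02 and 16380.4 against 5737 ± 1259 FPKM), a log2 difference of 1.49 ± 0.24 (adjusted p = 0.00147). ND3 was 2.56-fold higher (5818 and 6468 against 2440 ± 613 FPKM), by 1.36 ± 0.26 (adjusted p = 0.00282). The differences were 0.89 ± 0.28 for ND5 (1.85-fold, adjusted p = 0.0267), 0.84 ± 0.24 for ND2 (1.79-fold, 0.0173) and 0.67 ± 0.24 for ND1 (1.59-fold, 0.0472). For ATP6 and CYTB the differences were -0.35 ± 0.24 (adjusted p = 0.279) and -0.46 ± 0.24 (0.164), and for COX1, ND4 and ND4L they were 0.49 ± 0.24 (0.132), 0.32 ± 0.24 (0.318) and 0.21 ± 0.26 (0.552). IVF and KDM4E-SCNT were both compared with the same 3 SCNT libraries, so the differences of a gene in these comparisons are not independent.

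Of the 10 members, 5 were called higher in KDM4E-SCNT than in SCNT, where 21.6% of all features were, and 0 were called lower by limma, against 11%. At an unadjusted p under 0.05 the count of lower members was also 0. The groups did not overlap for 9 of 10 members, ND4L being the exception, and for 59.5% of all features. The median was 0.58 for the members and 0.33 for all features, of which 32.6% were called. COX3 and ND3 kept their calls under all 20 other settings (adjusted p from 0.000793 to 0.0254 and from 0.00163 to 0.0377), ND5 under 14 (0.00512 to 0.388), ND2 under 13 (0.00833 to 0.415) and ND1 under 5 (0.0209 to 0.75). Without KDM4E-SCNT replicate 2, SCNT replicate 1 or SCNT replicate 3, only COX3 and ND3 were called: ND2 was then at adjusted p = 0.0721, 0.0542 and 0.0639, ND5 at 0.151, 0.0781 and 0.0711, and ND1 at 0.115, 0.131 and 0.147. ND1 was also lost without IVF replicates 1, 2 or 3 (adjusted p = 0.0654, 0.0521 and 0.0710) or KDM4E-SCNT replicate 1 (0.0875). Median-ratio scaling left COX3 (1.02) and ND3 (0.88) called higher, called ATP6 (-0.82, adjusted p = 0.0258) and CYTB (-0.93, 0.0165) lower, and turned ND4 and ND4L to -0.16 and -0.26. Among all called features the share called higher was 66.2% in the fit reported. It was 43.3% with median-ratio scaling, 53.8% with upper-quartile scaling and 49.8% with quantile normalization. Median-ratio scaling moved the median of all features to 0.02.

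The third comparison set cloned embryos with KDM4E against fertilised ones. Here the members stood apart from IVF by nearly the same amount: each of the 10 had both KDM4E-SCNT libraries above all 3 IVF libraries, and their log2 differences spanned only 0.80 to 1.15, or 1.74-fold to 2.21-fold. ND5 was higher by 1.15 ± 0.28 (adjusted p = 0.0246), ND1 by 1.06 ± 0.24 (0.0171), COX1 by 0.99 ± 0.24 (0.0260), ND4L by 0.97 ± 0.26 (0.0425) and ND3 by 0.95 ± 0.26 (0.0460). The differences of ND4 (0.83 ± 0.24, adjusted p = 0.0573), COX3 (0.83 ± 0.24, 0.0650), ND2 (0.80 ± 0.24, 0.0660), ATP6 (0.80 ± 0.24, 0.0728) and CYTB (0.80 ± 0.24, 0.0758) did not pass. So 5 of 10 members were called higher by limma, where 5.9% of all features were, and 0 lower, against 0.62%. At an unadjusted p under 0.05 all 10 were higher and 0 lower. Groups did not overlap for 10 of 10 members and for 33.9% of all features, and the medians were 0.89 and -0.03, with 6.52% of all features called in all.

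These calls lay close to the threshold. ND1 kept its call under 16 of 20 other settings (adjusted p from 0.0148 to 0.650), COX1 and ND5 under 11 each (0.0224 to 0.827 and 0.0183 to 0.514), ND4L under 6 (0.0346 to 0.885) and ND3 under 3 (0.0339 to 0.915). No member was called without IVF replicate 1 or KDM4E-SCNT replicate 1, where the adjusted p of ND1 was 0.0868 and 0.0849 and its difference 0.95 and 1.03. Without SCNT replicate 3, 1 was called, 2 were without IVF replicate 2, IVF replicate 3 or KDM4E-SCNT replicate 2, 3 without SCNT replicate 1, and 6 without SCNT replicate 2, which added COX3 (adjusted p = 0.0428). The sign was positive for every member under each of the scalings except centring on the members themselves; quantile normalization gave 0.23 for COX3 and 0.21 for CYTB. With quantile normalization none of the 5 kept its call (adjusted p from 0.0707 for ND5 to 0.205 for ND3), and ATP6 was called instead (0.0496).

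The members were then set against each other within each library. ATP6 made up 25.98% ± 2.50 (SD, n = 3) of the summed FPKM of the 10 genes in IVF, 37.8% ± 2.32 in SCNT, and 25.8% and 23.4% in KDM4E-SCNT. CYTB made up 12.8% ± 0.714, 20.1% ± 1.70, and 12.9% and 11.4%. COX3 went the other way, with 19.3% ± 1.39 in IVF, 8.40% ± 2.87 in SCNT, and 18.0% and 19.5% in KDM4E-SCNT. For ATP6, CYTB and COX3 the SCNT libraries therefore stood apart from the other 5, and IVF and KDM4E-SCNT lay side by side. ND3 made up 6.92% ± 1.23, 3.42% ± 0.354, and 6.82% and 7.71%, and ND2 5.97% ± 0.524, 3.82% ± 0.237, and 5.48% and 5.87%, both with SCNT lowest. ND4L, at 2.74% ± 0.182, 3.05% ± 0.135, and 3.25% and 2.64%, and ND4, at 5.92% ± 0.628, 5.56% ± 0.432, and 5.65% and 5.84%, held nearly the same share in every group. ND1 made up 10.97% ± 0.748, 9.46% ± 0.258, and 12.5% and 12.4%, with SCNT lowest and KDM4E-SCNT above every IVF library. COX1 made up 7.40% ± 0.865, 6.87% ± 0.40, and 7.50% and 8.52%, and ND5 1.999% ± 0.359, 1.56% ± 0.143, and 2.12% and 2.70%. The 6 complex I members together held 33.2% to 35.7% in IVF, 26.7% to 27.2% in SCNT, and 35.8% and 37.1% in KDM4E-SCNT.

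**Figure D3:**
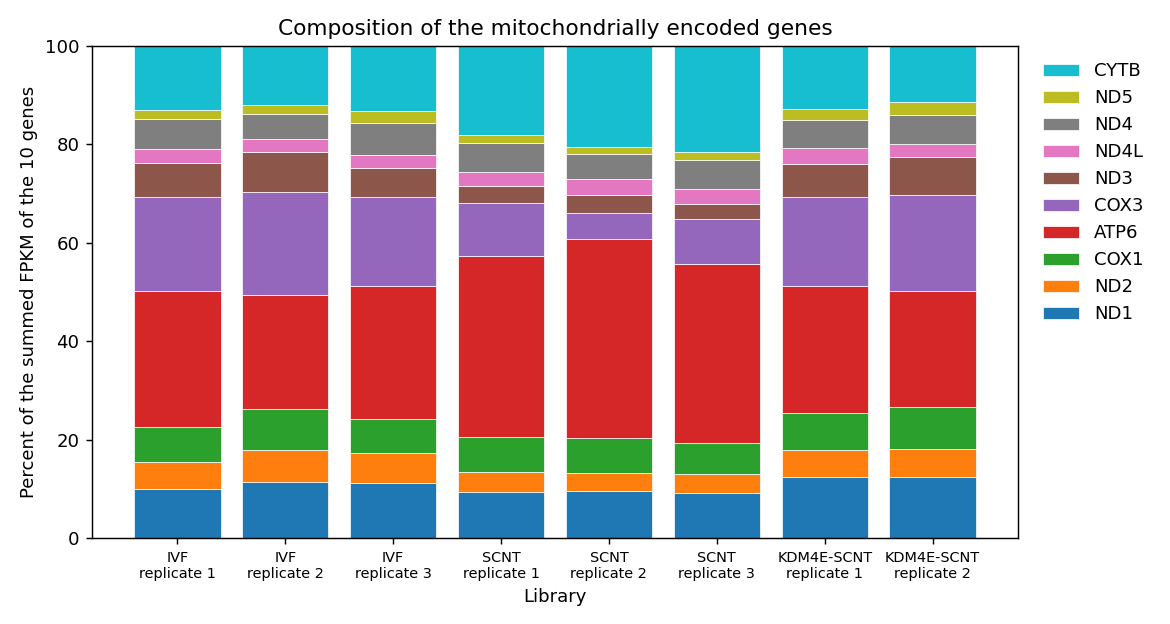
Percent of the summed FPKM of the 10 genes that each gene made up, for each of the 8 libraries, stacked in genome order from ND1 (bottom) to CYTB (top). ATP6 made up 37.8% on average in SCNT against 25.98% in IVF, and COX3 8.40% against 19.3%. For these genes the KDM4E-SCNT bars resemble the IVF bars. ND1 was higher in both KDM4E-SCNT libraries (12.5% and 12.4%) than in every IVF library.

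Ratios of members, chosen after their values were seen and so given with no test, show the same arrangement. The ratio of ATP6 to its neighbour COX3 was 1.45, 1.11 and 1.497 in IVF, 3.39, 7.74 and 3.95 in SCNT, and 1.44 and 1.2 in KDM4E-SCNT. The ratio of CYTB to COX3 was 0.684, 0.573 and 0.734 in IVF, 1.68, 3.93 and 2.34 in SCNT, and 0.718 and 0.582 in KDM4E-SCNT. Both ratios were highest in SCNT replicate 2, and without it the remaining SCNT libraries still lay above the other 5. Within complex IV, the ratio of COX1 to COX3 was 0.370, 0.402 and 0.374 in IVF, 0.660, 1.35 and 0.699 in SCNT, and 0.418 and 0.436 in KDM4E-SCNT. The ratio of ATP6 to CYTB, in contrast, stayed between 1.69 and 2.13 over the 8 libraries. As a measure of distance between the compositions of a pair of libraries, the share of the summed FPKM that would have to move between genes to make them equal was taken. This distance was 2.89 to 6.55 percentage points between IVF and KDM4E-SCNT libraries, 3.11 to 7.37 among IVF libraries and 3.54 to 7.05 among SCNT libraries. It was 14.2 to 26.6 percentage points between IVF and SCNT, and for SCNT with KDM4E-SCNT it was 16.2 to 26.7.

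The differences between members were tested by centring every library on the mean log2 value of the 10 genes. This setting was added after the data were seen. It makes the 10 log2 differences of a comparison add up to 0, so calls in opposite directions are partly forced. Relative to the other members, COX3 (1.03 ± 0.26, adjusted p = 0.00339) and ND3 (0.77 ± 0.25, 0.0136) were higher in IVF than in SCNT, and CYTB (-0.88 ± 0.22, 0.00326) and ATP6 (-0.77 ± 0.22, 0.00627) were lower. With the same centring, COX3 (0.94 ± 0.29, 0.0254) and ND3 (0.81 ± 0.28, 0.0377) were higher in KDM4E-SCNT than in SCNT, and CYTB (-1.0 ± 0.25, 0.00846) and ATP6 (-0.89 ± 0.24, 0.0127) were lower. Both comparisons use the 3 SCNT libraries. Without centring, CYTB and ATP6 were not called lower in KDM4E-SCNT than in SCNT (limma adjusted p = 0.164 and 0.279). Nor was ND3 called in IVF against SCNT (0.15). Between KDM4E-SCNT and IVF limma called 0 members, also at an unadjusted p under 0.05, with differences from -0.12 to 0.23 and adjusted p of 0.514 (ND5) and above; an undetected difference does not show that the compositions were equal. Among all called features, centring on the members moved the share called higher to 71.5% in IVF against SCNT and 31.5% in KDM4E-SCNT against SCNT. In KDM4E-SCNT against IVF it moved to 6.97%, from 90.5% in the uncentred fit.

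The nuclear genes of the same complexes were more often called lower than higher in IVF and in KDM4E-SCNT, each against SCNT. The mitochondrial members were called lower 3 times (CYTB, ATP6 and ND4L) and higher once (COX3) in IVF, and in KDM4E-SCNT 5 were called higher and 0 lower. Of 73 tested nuclear subunits of complexes I, III, IV and V, 46 were lower and 9 higher in IVF than in SCNT, with a median of -1.35 against 0.39 for all features. Of all features, 23.6% were called lower and 34.9% higher there. For KDM4E-SCNT against SCNT, 31 were lower and 3 higher (median -0.93 against 0.33), beside 11% and 21.6% of all features. In KDM4E-SCNT against IVF limma called 0 lower (1 at an unadjusted p under 0.05) and 21 higher (median 0.49 against -0.03), beside 0.62% and 5.9% of all features. The lists and their members were chosen with results of these data known. Over all features, median-ratio scaling moved the count called lower in KDM4E-SCNT than in SCNT from 1636 to 2757. Leaving out KDM4E-SCNT replicate 2 reduced the 31 to 12, and leaving out KDM4E-SCNT replicate 1 reduced the 21 to 9, while median-ratio scaling raised the 31 to 47.

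In complex I, 20 of 37 nuclear subunits were lower and 6 higher in IVF than in SCNT, beside 23.6% and 34.9% of all features. In KDM4E-SCNT, 12 of the 37 subunits were lower and 2 higher than in SCNT, beside 11% and 21.6%. NDUFA5, a subunit of the matrix arm, stood at 4.57, 11.9 and 8.25 FPKM in IVF, 603, 478 and 461 FPKM in SCNT, and 105.4 and 105.1 FPKM in KDM4E-SCNT. Its log2 differences were -5.87 ± 0.32 for IVF minus SCNT (adjusted p = 2.08e-07) and -2.27 ± 0.36 for KDM4E-SCNT minus SCNT (0.00129). NDUFA13 differed by -3.26 ± 0.28 and -1.92 ± 0.31, NDUFB11 by -5.35 ± 0.48 and -1.82 ± 0.54, and NDUFA12 by -2.10 ± 0.28 and -1.97 ± 0.31 in these comparisons. Of the 6 mitochondrial complex I genes, ND4L was called lower in the first comparison (-0.76) and the others were not called there, with ND4 at -0.51, ND1 at -0.39, ND5 at -0.26, ND2 at 0.04 and ND3 at 0.40. In the second, ND3 (1.36), ND5 (0.89), ND2 (0.84) and ND1 (0.67) were called higher, and ND4 (0.32) and ND4L (0.21) were not called.

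In complex IV, 9 of 12 nuclear subunits were lower and 2 higher in IVF than in SCNT (median -2.56). Over all features 23.6% were lower and 34.9% higher. In KDM4E-SCNT, 8 of the 12 subunits were lower and 1 higher than in SCNT (median -1.37), beside 11% and 21.6%. COX7A2 was at 95.05, 108.2 and 83.9 FPKM in IVF, 1572, 1386 and 1265 FPKM in SCNT, and 669.6 and 390.1 FPKM in KDM4E-SCNT. It differed by -3.87 ± 0.26 between IVF and SCNT (adjusted p = 5.77e-07) and by -1.45 ± 0.30 between KDM4E-SCNT and SCNT (0.00382). The mitochondrial COX3 differed by 0.66 and 1.49 in these comparisons, both called, and COX1 by -0.50 and 0.49, neither called. COX4I1, the common isoform of subunit IV, differed by -3.69 ± 0.28 and -1.58 ± 0.31, COX7C by -4.22 ± 0.36 and -1.81 ± 0.41, and COX6A1 by -2.41 ± 0.26 and -1.32 ± 0.29. The mean FPKM of COX1 and COX3 was 96.1 to 133.0 times the mean of the 13 nuclear complex IV subunits in IVF, 8.41 to 10.9 times in SCNT, and 41.1 and 80.1 times in KDM4E-SCNT. For complex I the ratio of the mean of the 6 mitochondrial genes to that of 37 nuclear ones was 22.7 to 31.6 in IVF, 13.1 to 17.01 in SCNT, and 37.4 and 45.2 in KDM4E-SCNT.

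In complexes III and V the differences of CYTB and ATP6 from SCNT had the sign of the medians of their nuclear partners. These medians were -1.67 and -1.34 in IVF and -1.23 and -0.76 in KDM4E-SCNT. Neither CYTB (-0.46, limma adjusted p = 0.164) nor ATP6 (-0.35, 0.279) was called in KDM4E-SCNT against SCNT. With quantile normalization ATP6 stood at 0.0 there. All 9 nuclear subunits of complex III were called in IVF against SCNT, 8 lower and 1 higher, where 58.5% of all features were called and 23.6% were called lower. Among them were UQCR10 at -3.78 ± 0.27, UQCRFS1, the iron-sulfur protein, at -4.08 ± 0.42 and UQCRB at -3.06 ± 0.35, beside -1.25 for CYTB. In the KDM4E-SCNT libraries, 4 were lower than in SCNT, UQCR10 by -1.69 ± 0.31 and UQCRFS1 by -1.65 ± 0.47. Of 15 nuclear ATP synthase subunits, 9 were lower in IVF than in SCNT and none was higher, also at an unadjusted p under 0.05, such as ATP5F1E (-4.38 ± 0.38), ATP5PD (-4.13 ± 0.38) and ATP5MF (-3.08 ± 0.27), beside -1.14 for ATP6. In KDM4E-SCNT 7 were lower than in SCNT, such as ATP5PO (-1.72 ± 0.30) and ATP5MG (-1.19 ± 0.28). Of all features, 11% were called lower in KDM4E-SCNT than in SCNT. The ratio of CYTB to the mean of the nuclear complex III subunits was 71.4 to 82.8 in IVF, 51.4 to 99.0 in SCNT, and 111.1 and 100.7 in KDM4E-SCNT, and that of ATP6 to its nuclear partners was 59.1 to 81.6, 54.8 to 102.6, and 92.4 and 89.9. For complexes III and V the IVF and SCNT ranges overlapped, unlike those of complexes I and IV. Complex II has no mitochondrial gene; of its 4 subunits SDHD alone was called in IVF against SCNT, at -4.50 ± 0.40 (adjusted p = 3.23e-06), with SDHA at 1.00 ± 0.42 (0.0546) and SDHB at -0.57 ± 0.50 (0.342).

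**Figure D4:**
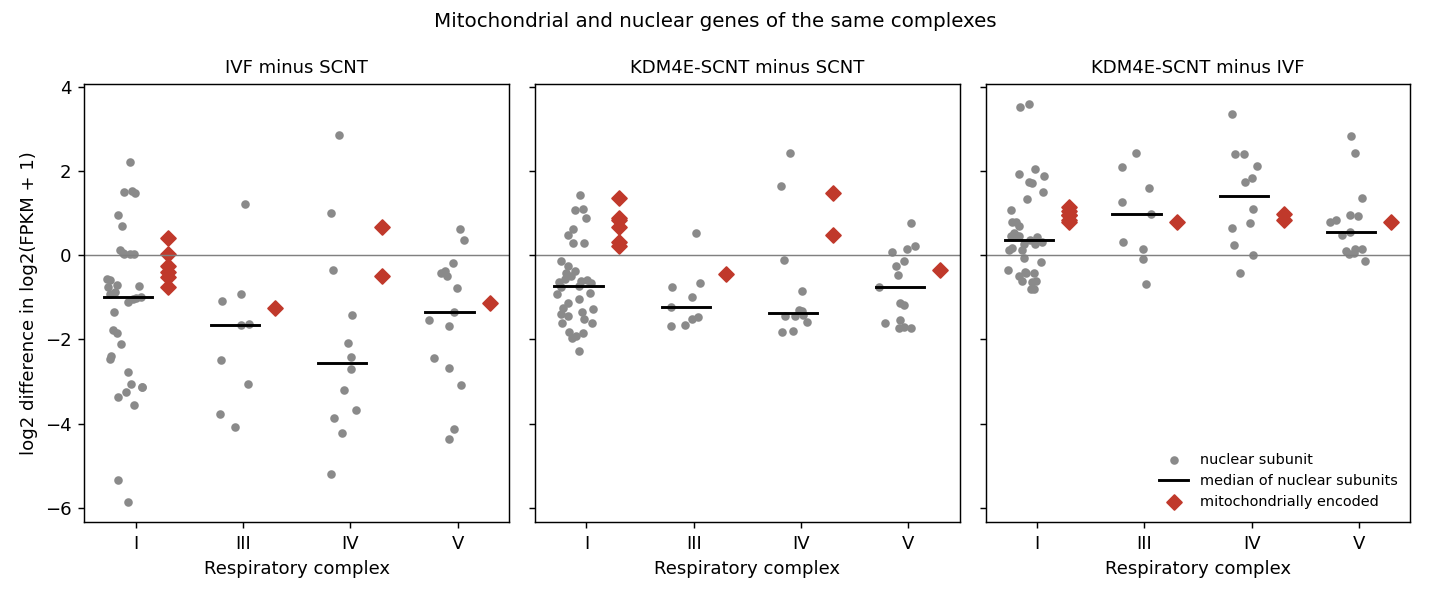
Log2 differences in FPKM + 1 for the mitochondrially encoded members (diamonds) and the nuclear subunits (circles, median as a bar) of complexes I, III, IV and V in the 3 comparisons. For complex IV the nuclear median was -2.56 in IVF minus SCNT and -1.37 in KDM4E-SCNT minus SCNT, while COX3 was at 0.66 and 1.49.

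Nuclear genes that copy, transcribe and process mitochondrial DNA and RNA were called in both directions. Of 19 genes for replication and transcription, 7 were higher and 6 lower in IVF than in SCNT, and 6 were higher and 3 lower in KDM4E-SCNT than in SCNT. These counts lie near the shares over all features, which were 34.9% higher and 23.6% lower in the first comparison and 21.6% and 11% in the second. MTERF3, a negative regulator of mitochondrial transcription, was at 449, 294 and 340.15 FPKM in IVF, 64.6, 77.1 and 69.3 FPKM in SCNT, and 142.3 and 268.5 FPKM in KDM4E-SCNT, with differences of 2.32 ± 0.29 (adjusted p = 3.65e-05) and 1.47 ± 0.33 (0.00615). DGUOK and TK2, kinases that supply nucleotides for mitochondrial DNA, were also higher in both groups than in SCNT, DGUOK by 2.38 ± 0.30 and 1.80 ± 0.34. TK2 was at 18.8 to 21.1 FPKM in IVF, 1.75 to 6.68 FPKM in SCNT, and 12.9 and 16.2 FPKM in KDM4E-SCNT (adjusted p = 0.000372 and 0.00951). SSBP1, the single-strand DNA-binding protein of the replication fork, was lower in both, by -3.32 ± 0.32 and -1.07 ± 0.35, as was RNASEH1 (-2.69 ± 0.34 and -1.21 ± 0.38). TFAM, which packages and helps transcribe mitochondrial DNA, and POLRMT, the mitochondrial RNA polymerase, were picked for their role after their values were seen. TFAM differed by -2.71 ± 0.39 (adjusted p = 8.33e-05) and -1.13 ± 0.43 (0.0613), and POLRMT by -1.39 ± 0.41 (0.0108) and -0.07 ± 0.45 (0.923).

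Of 19 genes of mitochondrial RNA processing and stability, 8 were lower and 2 higher in IVF than in SCNT, and 7 were lower and 1 higher in KDM4E-SCNT than in SCNT. TRMT10C and HSD17B10, parts of the enzyme that cuts transfer RNAs from the precursor, differed by -3.44 ± 0.28 and -2.76 ± 0.31 between IVF and SCNT (limma adjusted p = 1.81e-06 and 1.44e-05). Between KDM4E-SCNT and SCNT they differed by -1.38 ± 0.31 and -1.66 ± 0.34 (0.00615 and 0.00415). PRORP, another part of that enzyme, picked after its values were seen, was called in neither comparison. It stood at -0.13 ± 0.28 (limma adjusted p = 0.714) and -0.25 ± 0.31 (0.555). SLIRP, which with LRPPRC keeps mitochondrial messengers stable, differed by -2.44 ± 0.27 and -1.56 ± 0.30. Of 12 translation factors, 4 were lower and 2 higher in IVF than in SCNT, such as the elongation factor TUFM (-1.52 ± 0.29) and the initiation factor MTIF3 (1.63 ± 0.31), and 2 were lower and 1 higher in KDM4E-SCNT than in SCNT. The shares over all features were 23.6% lower and 34.9% higher in the first of these comparisons, and 11% and 21.6% in the second. In KDM4E-SCNT against IVF, 4 of the 50 genes on the lists for replication, transcription, RNA processing and translation were higher. There limma called 0 of the 50 lower (3 at an unadjusted p under 0.05). Of all features, 5.9% were called higher and 0.62% lower in this comparison, and the counts of the 50 lie near these shares. Among the 4 genes were SSBP1 (2.26 ± 0.35) and TRMT10C (2.06 ± 0.31). The 8 genes of the 50 that were higher in KDM4E-SCNT than in SCNT became 1 to 8 when single libraries were left out.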

How the data were processed

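RNA from pools of eight-cell Holstein embryos was measured in 8 libraries (IVF 3, SCNT 3, KDM4E-SCNT 2), grouped by the labels. Reverse transcription (SuperScript III) was followed by poly(A) tailing, PCR amplification and fragmentation, per the labels' protocols. RSEM 1.2.12, Bowtie2 2.2.5, StringTie 1.0.4, HISAT 0.1.6, bcl2fastq 2.16 and the build UMD3.1 are listed, with no role, per the submitters' processing notes; how reads from overlapping genes or nuclear copies were assigned is not given in the sources used here. The deposited files hold FPKM per gene, per the file headers, with no counts, so depth and counting error are unknown. Coordinates are those of the files. The 10 members were found by location and description. Of 231 listed nuclear and marker genes, 15 were not found, and older symbols in the files (ATP5E for ATP5F1E and the like) were matched to current ones. A total of 392 features were named by RefSeq accession in a gene table (ARS-UCD2.0) that served for names alone. The members and lists were chosen with earlier results of these data known.

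Values were tested as log2(FPKM + 1) for the 14839 features with at least 1 FPKM in at least 2 libraries, all 10 members among them. All 8 libraries entered 1 limma 3.58.1 fit (R 4.3.3, limma-trend with robust moderation). P-values were two-sided and adjusted by the Benjamini-Hochberg method over all tested features, and adjusted p in the text is limma's. Fold changes are on the log2(FPKM + 1) scale. Errors are SD for FPKM and SE for log2 differences. The scripts were tested on simulated data. Alternatives were another pseudocount (0.1), filters, scalings, a fit of only the groups compared, no robust moderation, the replicate number as a block, and each library left out. Genes named are the members, the other MT rows and up to 3 per nuclear list with the smallest p in each comparison with SCNT. The 3 most abundant markers per list, the markers at 0 and the 5 features closest to the members' profile are also named.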

Additional observations from a re-analysis of the deposited data

How the results depend on the processing

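Depth limits every value here in a way that cannot be measured from FPKM, and with 3, 3 and 2 libraries single libraries decide calls near the threshold. No called difference of a member changed sign under any of the 20 alternatives. In IVF against SCNT, 1 member was higher in the fit reported, 0 with median-ratio or upper-quartile scaling, 2 with the same total FPKM or centring on the members, and 0 to 1 with a library left out. The 3 lower members became 7 with median-ratio scaling, 6 with upper-quartile scaling, 5 in a fit of only these groups, and 2 to 5 with a library left out. In KDM4E-SCNT against SCNT, the 5 higher members became 2 with median-ratio scaling, upper-quartile scaling or centring, 3 with quantile normalization, and 2 to 5 with a library left out, and 0 lower became 2 with median-ratio scaling or centring. In KDM4E-SCNT against IVF, the 5 higher members became 2 with no filter or upper-quartile scaling, 3 with median-ratio scaling or the same total FPKM, 1 in a fit of only these groups, 0 with centring, and 0 to 6 with a library left out. With quantile normalization the 5 lost their calls and 1 other member, ATP6, was called (limma adjusted p = 0.0496). The counts over all features moved as well. Of 14839, 5182 were higher and 3498 lower in IVF than in SCNT in the fit reported. With median-ratio scaling it was 4152 and 4331, with upper-quartile scaling 4763 and 3842, and in a fit of only these groups 5278 and 3550. With the same total FPKM it was 5700 and 3149, and with centring 6574 and 2617. In KDM4E-SCNT against SCNT, 3208 of all features were higher and 1636 lower, and with median-ratio scaling 2109 and 2757. With upper-quartile scaling it was 2577 and 2213, with quantile normalization 2092 and 2108, and with centring 1417 and 3075. Against IVF, 875 were higher, 740 with median-ratio scaling, 756 with upper-quartile scaling and 801 with the same total FPKM. In a fit of only these groups it was 505, and with centring 407. The cause of these changes was not tested, except that fewer features or samples entered some fits.

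For the nuclear subunits, the 9 higher in IVF than in SCNT became 5 to 9 with a library left out. In KDM4E-SCNT against SCNT, the 3 higher became 1 with median-ratio scaling or centring, 5 with quantile normalization and 0 to 4 with a library left out, and the 31 lower became 47 with median-ratio scaling and 12 to 35 with a library left out. Against IVF, the 21 higher became 13 with centring and 9 to 21 with a library left out. The 0 lower became 14 with centring and 0 to 2 with a library left out. With centring, 407 of all 14839 features were higher in this comparison and 5435 were lower. For the 50 genes of mitochondrial DNA, RNA and translation, the 11 higher in IVF than in SCNT became 17 with centring. Of all 14839 features, 6574 were then higher in IVF. In KDM4E-SCNT against SCNT, the 8 higher became 3 with no filter, median-ratio scaling, upper-quartile scaling or only these groups, 5 with quantile normalization, 2 with centring and 1 to 8 with a library left out, and the 12 lower became 7 with no filter and 3 to 13 with a library left out. Against IVF, the 4 higher became 2 with no filter, median-ratio scaling, the same total FPKM, only these groups or centring. With a library left out they became 2 to 7. The 0 lower became 15 with centring, where 5435 of all 14839 features were lower, and 0 to 2 with a library left out. The members' share of FPKM became 8.54% in IVF (6.38%), 10.4% in SCNT (8.48%) and 14.2% in KDM4E-SCNT (10.9%) over features outside the 10 most abundant, and in KDM4E-SCNT 11.4% over Ensembl features and 11.3% with all rows on chromosome MT.

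With the replicate number as a block, 3 members were higher in KDM4E-SCNT than in IVF and 5 of the 50 genes were higher in KDM4E-SCNT than in SCNT. Same-numbered IVF and SCNT libraries correlated at 0.0602, 0.0934 and 0.0277 in their deviations from the group means. Those of IVF and KDM4E-SCNT correlated at 0.0324 and 0.0678, and those of SCNT and KDM4E-SCNT at 0.0065 and 0.123. All these same-numbered values were positive. Libraries of different number ran from -0.1335 to 0.1335, both for SCNT replicate 3 with KDM4E-SCNT. With only 2 KDM4E-SCNT libraries, their deviations from the group mean are exact opposites. Each correlation with replicate 1 is therefore that with replicate 2 with the sign turned. Between IVF and SCNT, libraries of different number ran from -0.1078 to 0.0702, and IVF replicate 3 correlated best with SCNT replicate 1 (0.0702). Correlations this weak cannot show whether same-numbered samples share a batch.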

Other observations

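Assembly factors build the respiratory complexes without being part of them, and of 37 tested, 18 were lower and 8 higher in IVF than in SCNT (median -0.65 against 0.39 for all features). In KDM4E-SCNT against SCNT, 8 were lower and 2 higher (median -0.53 against 0.33). Over all features, 23.6% were called lower and 34.9% higher in the first comparison, and 11% and 21.6% in the second. TMEM70, which helps to assemble the ATP synthase, was at 3.91, 3.74 and 2.13 FPKM in IVF, 69.9, 49.0 and 69.5 FPKM in SCNT, and 15.6 and 10.3 FPKM in KDM4E-SCNT. Its log2 differences from SCNT were -3.91 ± 0.33 (limma adjusted p = 2.13e-06) in IVF and -2.20 ± 0.36 (0.00153) in KDM4E-SCNT. NDUFAF5, a complex I factor, differed by -2.94 ± 0.33 and -2.66 ± 0.37, and COA3, which acts in making COX1, by -2.15 ± 0.31 and -1.95 ± 0.34. COX17, a copper carrier for complex IV, differed by -2.23 ± 0.27 (adjusted p = 2.87e-05) in IVF and by -0.71 ± 0.31 (0.0918) in KDM4E-SCNT.

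The mean profile of the 10 mitochondrial genes was low in IVF and high in KDM4E-SCNT. It was compared with the 3564 nuclear features that had a symbol and a mean log2(FPKM + 1) of at least 4. The measure was the root mean square difference of log2(FPKM + 1) over the 8 libraries, each profile centred on its own mean. RAB11A was closest (0.154), at 610.3, 842 and 859 FPKM in IVF, 819, 919 and 893 FPKM in SCNT, and 1277 and 1164 FPKM in KDM4E-SCNT. NCAPG (0.227), COPS4 (0.234), SNRPD1 (0.244) and GNL2 (0.245) followed. These features were the closest of the 3564, so their small distances follow from that choice, while the members themselves enter the mean. Among the members, COX3 stood at 0.548, CYTB at 0.465, ND3 at 0.417 and ATP6 at 0.416, while ND1 stood at 0.0818. All profiles share the same 8 libraries and their scaling.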
